A study of Homo sapiens with 9 samples.

Results

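Oxidative phosphorylation genes were taken from the array annotation by their symbols, namely NDUFA, NDUFB, NDUFC, NDUFS, NDUFV, UQCR, COX4I, COX5, COX6, COX7, COX8 and ATP5 symbols and the SDHA to SDHD genes. The rule found 90 genes with 173 single-gene probe sets, of 19775 genes and 54675 probe sets in all. Of these 90 genes, 75 encode subunits of the 5 complexes: 33 of complex I, 3 of complex II, 6 of complex III, 16 of complex IV and 17 of complex V. The symbols also took in 8 complex I assembly factors, ATP5IF1 and COX7A2L, and 5 RNA genes and pseudogenes. Each gene was read from its probe set with the highest mean signal over all arrays. The 9 one-colour Affymetrix arrays held RNA of MCF10A, a human mammary epithelial cell line that is immortalized but does not form tumours and needs added EGF to grow, with 3 biological replicates in each of 3 groups. The group labelled ERBB2, whose arrays are called ERBB2-labelled below, had been infected with a pBabe retrovirus carrying ERBB2, a receptor tyrosine kinase. The EGF group carried the empty pBabe virus and received EGF at 50 ng/ml for 2 h before harvest, and the vector group carried the empty virus alone. All 3 groups had been maintained in 5% horse serum with 20 ng/ml EGF, hydrocortisone, cholera toxin and insulin, and were held after infection in assay medium with 2% horse serum and no EGF. A lasting transgene is thus set beside a 2 h stimulus, and the time between infection and harvest was not stated. The replicates are called biological, and no label tells whether each had its own infection, so a p-value here reflects the spread between these 9 samples, which may be technical.

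In oxidative phosphorylation, complexes I (NADH dehydrogenase) and II (succinate dehydrogenase) pass electrons to coenzyme Q, complex III passes them to cytochrome c, and complex IV (cytochrome c oxidase) passes them to oxygen. Complexes I, III and IV pump protons across the inner mitochondrial membrane, and complex V (ATP synthase) uses the proton gradient to make ATP. Most subunits are encoded in the nucleus and imported, while the mitochondrial genome encodes a small set of subunits of complexes I, III, IV and V, so that both genomes contribute to each of those 4 complexes. Dedicated assembly factors build the complexes and are not part of the finished enzymes.

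The label of the ERBB2 group was checked first. The brightest ERBB2 probe set read 114, 72.2 and 110.2 on ERBB2-labelled arrays, 128, 81.9 and 102 with EGF, and 184, 216 and 122 with vector, a log2 change of -0.71 ± 0.20 (SE, adjusted p = 0.00676) against vector, which goes against the label, although the call was lost without ERBB2 replicate 2 (adjusted p = 0.0517) or vector replicate 2 (adjusted p = 0.0506). A dimmer ERBB2 probe set read 34.0, 34.2 and 38.5 on ERBB2-labelled arrays, 16.8, 15.0 and 14.5 with EGF, and 5.68, 9.69 and 22.5 with vector, a log2 change of 0.89 (adjusted p = 0.00882) and the last was not called (0.10). Which part of the transcript each probe set covers was not examined, so every direction below holds for the arrays as labelled. The authors' scaling left a trimmed mean of 100.03 on all 9 arrays, while median signals lay between 17.9 and 20.1 on ERBB2-labelled arrays, 15.6 and 16.9 with EGF, and 19.9 and 20.2 with vector. Of the array's quality probes, the ratio of 5' to 3' ACTB signal ranged over 0.701 to 0.796 on ERBB2-labelled arrays, 0.378 to 0.505 with EGF and 0.325 to 0.436 with vector, and the same ratio for GAPDH over 0.838 to 0.901 on ERBB2-labelled arrays, 0.762 to 0.850 with EGF and 0.821 to 0.885 with vector. Signal of the 18S ribosomal RNA probe was 11926 to 13513 on ERBB2-labelled arrays, against 2103 to 3369 with EGF and 1945 to 4569.7 with vector. Their part in the results was not tested. Of 9 measured mammary epithelial markers none read under 16 on all arrays of a group, with summed signals of 29052 to 30990.0 on ERBB2-labelled arrays, 35903 to 41320.1 with EGF and 32707 to 37480.2 with vector. Of 8 fibroblast markers, summed at 419 to 602 on ERBB2-labelled arrays, 538 to 589 with EGF and 1373 to 1544 with vector, DCN carried most of the sum, with means of 378 on ERBB2-labelled arrays, 433 with EGF and 1345 with vector. Blood and endothelial markers, of which 9 were measured, summed to 286 to 339.9 on ERBB2-labelled arrays, 270.3 to 301 with EGF and 292 to 327 with vector. The part of these markers in the results was not tested either.

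Most subunits that moved were lower in the ERBB2-labelled and the EGF arrays, and most complex I assembly factors were higher. A gene was called when its adjusted p in a limma fit over all probe sets was under 0.05, and changes are differences of log2(signal + 16). On ERBB2-labelled arrays, 38 of the 71 subunits measured above the filter on low signals fell and 6 rose relative to vector, with a median change of -0.24. Over all 13723 genes tested in that comparison, 25.1% were called lower, 20.8% higher and 45.9% in all, with a median of -0.07. After 2 h of EGF, 34 of 71 subunits fell and 2 rose, with a median of -0.21, beside 19.0% lower, 17.2% higher and 36.2% called in all among all genes (median -0.10). Bright genes were called more often: among the 1412 genes at least as bright as the lower quartile of the members, 40.7% fell and 33.7% rose on ERBB2-labelled arrays, and 31.2% fell and 33.5% rose with EGF. In RNA from a whole culture, fewer cells that express a gene and less RNA per cell cannot be told apart.

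Sizes were modest: only NDUFB11, NDUFAF2 and NDUFAF4 were called past 2-fold on ERBB2-labelled arrays and only NDUFAF4 with EGF. Of the 86 genes of the rule that passed the filter, 39 fell and 11 rose on ERBB2-labelled arrays, and 36 fell and 7 rose with EGF. Both comparisons use the same vector arrays, so they are not independent. The other 4 genes did not pass the filter, namely COX7A1, COX7B2, COX8C and ATP5MF, whose signals did not exceed 18.3 on any array. They were not tested.

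**Figure D1:**
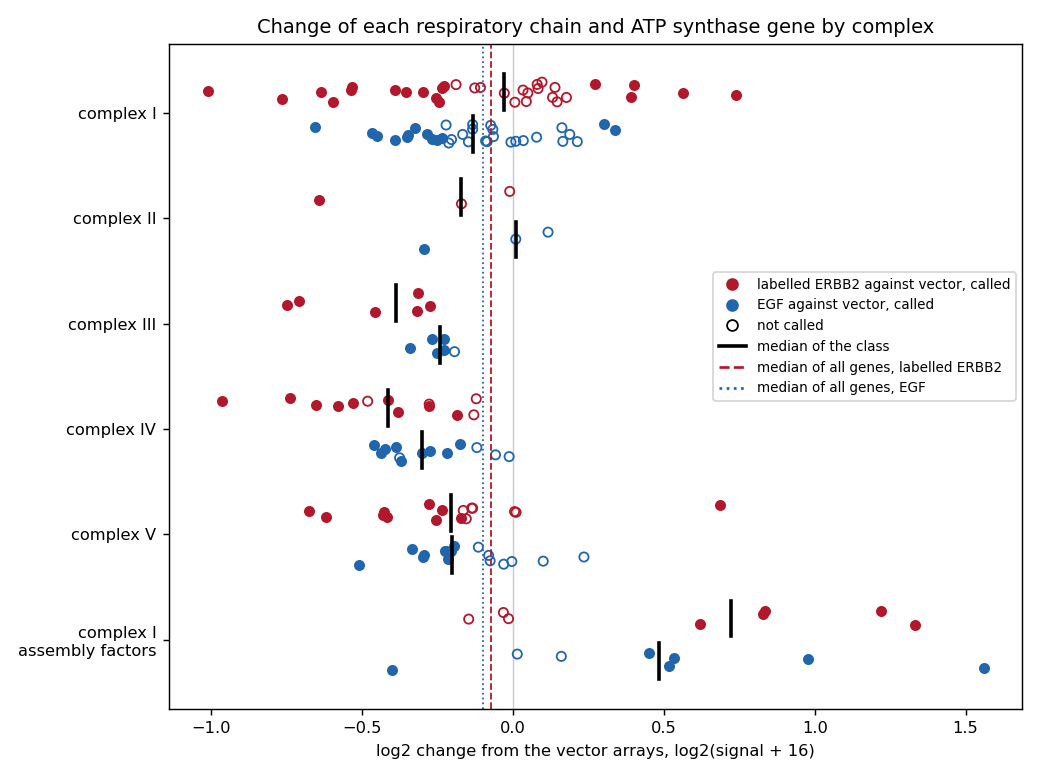
Log2 change from the vector arrays (horizontal axis, log2 of signal plus 16) of every subunit and complex I assembly factor that passed the filter, in rows by complex. Red points are ERBB2-labelled arrays and blue points EGF arrays, filled where called at an adjusted p under 0.05. Thick bars are class medians and broken lines the medians of all genes. Medians of complexes III, IV and V lie left of 0, complex I spreads to both sides, and 5 assembly factors lie at the right; under equal array medians, EGF points move right and the EGF median of complex I turns to 0.03.

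The EGF counts depended on how the arrays were scaled. Giving all arrays equal medians moved the median change of the probe sets past the filter in EGF against vector to 0.05, against -0.11 with the authors' scaling, on the log2 scale. Those array medians were taken before the filter, and 44.2% to 50.6% of probe sets on an array read under 16. This scaling thus aligned the arrays on dim probe sets, and which scaling suits bright genes better was not tested. Under it the subunits' median in EGF against vector was -0.05, with 9 subunits called lower and 7 higher. Those 9, all among the 34 of the original scaling, were NDUFA2, NDUFB11, UQCRB, COX6A1, COX6B1, COX6C, COX7C, COX8A and ATP5MC2, so every other EGF fall of a subunit described below was not called under equal array medians. On ERBB2-labelled arrays, 34 subunits were lower and 8 higher under equal medians, and 31 lower and 11 higher under quantile normalization, which left 27 lower and 4 higher with EGF. Leaving out vector replicate 3 lowered the number of subunits called lower with EGF to 21, and leaving out vector replicate 2 raised the number called higher to 4. With the authors' scaling, the subunits' median on each array lay between -0.27 and -0.19 relative to the vector mean on ERBB2-labelled arrays. It lay between -0.21 and -0.17 with EGF, and between -0.10 and 0.07 with vector. Both the ERBB2-labelled and the EGF arrays thus lay below all vector arrays. The same order, with smaller differences, held for the median over all 13723 genes. That median was -0.08 to -0.04 on ERBB2-labelled arrays, -0.09 to -0.06 with EGF and -0.01 to 0.02 with vector.

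**Figure D2:**
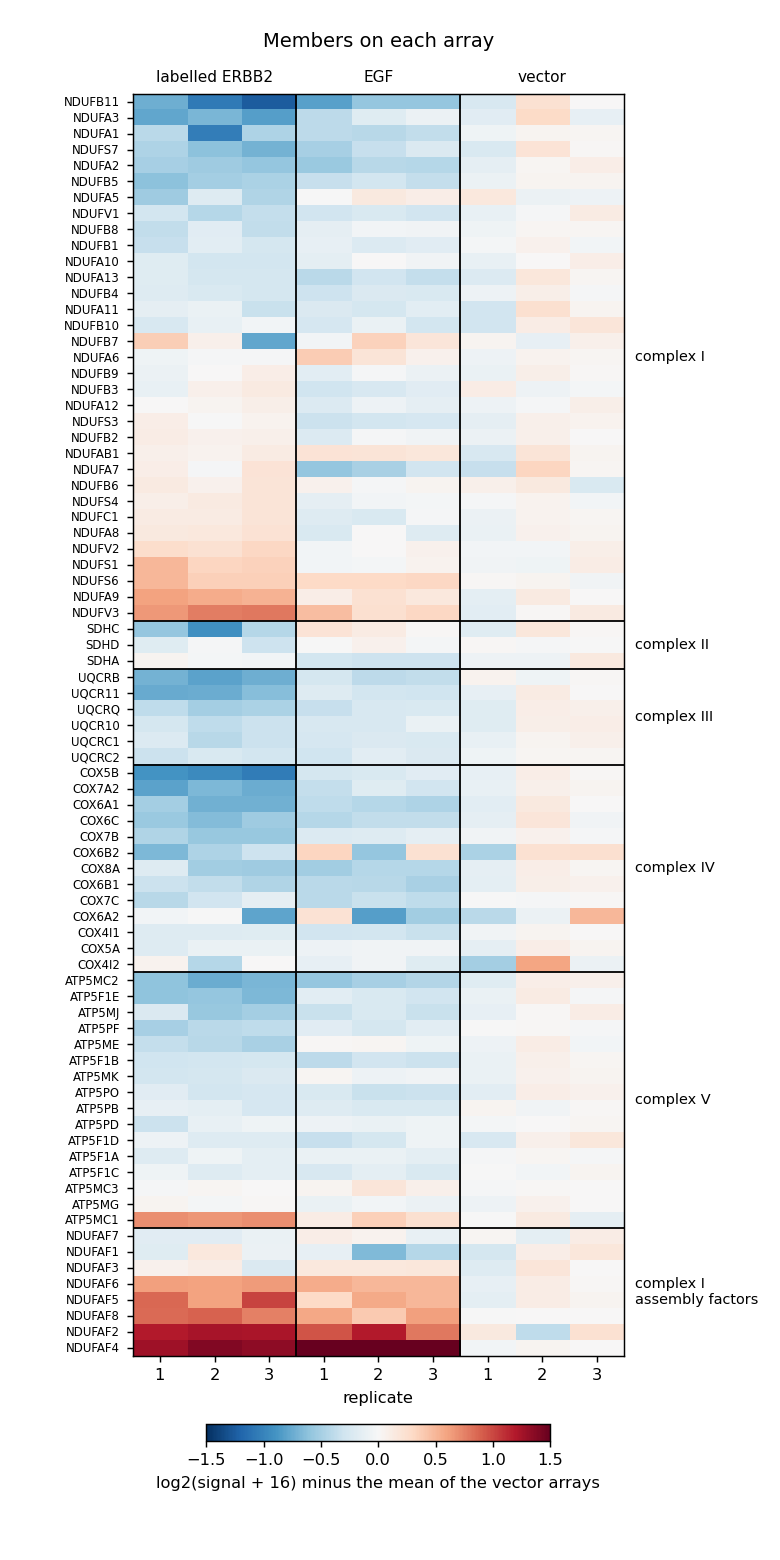
Heat map of 79 genes (71 subunits and 8 complex I assembly factors, rows grouped by complex and ordered within it by the change on ERBB2-labelled arrays) on 9 arrays (columns). Colour is log2(signal + 16) minus the mean of the 3 vector arrays, blue for lower and red for higher. Every row of complex III is blue on ERBB2-labelled arrays, and NDUFAF4 and NDUFAF2 are the deepest red rows.

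Promoters of these genes are known to carry sites for the regulators NRF1 and GABP, which is an ETS-family factor, and for YY1. Windows of 300 bases, 250 before and 50 after the annotated start, were available from RefSeq (GRCh38.p14) for 64 of the 75 subunits and searched on both strands. The NRF1 motif, written as GCGCA and GCGC with any 1 base between them, was found in 16 of 64 subunit promoters (25.0%), beside 8.58% of 15843 protein-coding promoters. The ETS motif, CCGGAAG, was found in 18 (28.1%), beside 14.2%, and the YY1 motif, AAGATGGCG, in 7 (10.9%), beside 2.74%. The E-box CACGTG was found in 7 (10.9%), beside 8.88%, and the ERR motif TCAAGGTCA in 1 (1.56%), beside 0.240%. A match describes letters and not a site in use, and the shares were not tested. Subunits with the ETS motif had a median change of -0.32 on ERBB2-labelled arrays, against -0.21 without it, and of -0.24 with EGF, against -0.20. For the NRF1 motif the medians were -0.23 with it and -0.24 without it on ERBB2-labelled arrays, and -0.21 and -0.20 with EGF. Subunits with the YY1 motif, 7 in number, had a median of -0.03 on ERBB2-labelled arrays, against -0.24 without it, and of -0.20 with EGF, against -0.21. For the E-box the medians were -0.19 with it and -0.24 without it on ERBB2-labelled arrays, and -0.21 and -0.20 with EGF. These differences between medians were not tested. Stretches that end at the base before the start are shown for 4 genes with contrasting responses, with motif matches in capitals: a complex IV and a complex III subunit that fell, a complex I subunit that rose, and the assembly factor that rose most. Their positions are chr2:97646002-97646061 on the plus strand for COX5B, chr19:1605463-1605592 on the minus strand for UQCR11, chr12:4649014-4649113 on the plus strand for NDUFA9, and chr6:96897892-96898051 on the minus strand for NDUFAF4.
COX5B: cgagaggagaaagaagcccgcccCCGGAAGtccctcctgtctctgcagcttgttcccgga
UQCR11: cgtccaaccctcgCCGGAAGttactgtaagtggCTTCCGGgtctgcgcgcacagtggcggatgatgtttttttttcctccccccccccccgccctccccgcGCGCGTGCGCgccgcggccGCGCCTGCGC
NDUFA9: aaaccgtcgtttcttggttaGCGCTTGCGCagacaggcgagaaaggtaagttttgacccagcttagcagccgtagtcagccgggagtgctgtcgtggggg
NDUFAF4: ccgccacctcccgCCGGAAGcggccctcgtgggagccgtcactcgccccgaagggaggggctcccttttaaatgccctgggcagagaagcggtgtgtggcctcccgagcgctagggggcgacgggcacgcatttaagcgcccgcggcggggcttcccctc
COX5B, which fell, and NDUFAF4, which rose, each show the ETS letters, UQCR11 shows 2 matches to the ETS and 2 to the NRF1 motif, and NDUFA9 shows 1 to the NRF1 motif.

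Complex I, which oxidizes NADH, split between rises and falls on ERBB2-labelled arrays: 13 of 33 subunits fell, 5 rose and 15 were not called (median -0.03, and 0.02 under equal array medians), with 12 falls and 8 rises under quantile normalization. With EGF, 11 fell and 2 rose (median -0.13), but under equal array medians 2 fell and 5 rose (median 0.03). The falls made 39.4% of complex I on ERBB2-labelled arrays and 33.3% with EGF, and the rises 15.2% and 6.06%. Among the genes at least as bright as the members' lower quartile, 40.7% and 31.2% fell, and 33.7% and 33.5% rose. Falls in complex I were thus about as frequent as among bright genes, and rises less frequent. The deepest fall was that of NDUFB11, an X-linked accessory subunit of the membrane arm. NDUFB11 signals were 1488, 1186 and 1040.2 on ERBB2-labelled arrays, 1407, 1664 and 1655 with EGF, and 2111, 2909 and 2505 with vector. The ERBB2-labelled and EGF arrays lay below every vector array, with log2 changes of -1.01 ± 0.12 (SE, adjusted p = 8.31e-07) on ERBB2-labelled arrays and -0.66 ± 0.12 (SE, adjusted p = 2.56e-04) with EGF. NDUFA3, an accessory subunit of the membrane part, changed by -0.77 ± 0.11 (SE, adjusted p = 9.72e-06) on ERBB2-labelled arrays and by -0.22 with EGF, which was not called (adjusted p = 0.140). NDUFA1, also X-linked and in the membrane arm, fell in both, by 0.64 on ERBB2-labelled arrays and by 0.39 with EGF. NDUFA2, an accessory subunit near the site of NADH oxidation, fell by 0.54 on ERBB2-labelled arrays and 0.47 with EGF, and its EGF call remained under all 20 alternatives, whereas averaging its 2 probe sets past the filter ended the call on ERBB2-labelled arrays (adjusted p = 0.185).

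Rises in complex I were led by NDUFV3, a small accessory subunit of the NADH-oxidizing module. NDUFV3 signals were 1146, 1242 and 1264 on ERBB2-labelled arrays, 1002, 856 and 898 with EGF, and 645, 732 and 795 with vector. The groups did not overlap, with ERBB2-labelled arrays highest and vector lowest, and the changes were 0.74 ± 0.09 (SE, adjusted p = 1.64e-06) on ERBB2-labelled arrays and 0.34 ± 0.09 (SE, adjusted p = 0.00800) with EGF. A second, dim NDUFV3 probe set gave -0.09 on ERBB2-labelled arrays, not called, and 0.75 with EGF, called higher. NDUFA9, an accessory subunit that sits where the matrix arm meets the membrane, read 1111, 1075 and 1045 on ERBB2-labelled arrays, 779.8, 854 and 810.0 with EGF, and 654, 799 and 728 with vector. All ERBB2-labelled arrays lay above the rest, at 0.56 ± 0.09 (SE, adjusted p = 2.63e-05), while the EGF arrays overlapped vector, at 0.17, which was not called. NDUFS6, a zinc-binding accessory subunit, rose in both the ERBB2-labelled and the EGF arrays, by 0.40 on ERBB2-labelled arrays and 0.30 with EGF.

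The conserved core subunits, which carry the flavin and the iron-sulphur clusters, were mixed as well. NDUFS1, the largest iron-sulphur core subunit, read 1115, 983 and 1002 on ERBB2-labelled arrays, 761, 769 and 810.1 with EGF, and 756, 749.9 and 849 with vector. It rose on ERBB2-labelled arrays, at 0.39 ± 0.08 (SE, adjusted p = 9.05e-04), and EGF and vector overlapped, at -0.01. The rise of NDUFS1 rests on its brightest probe set, since the mean of all 5 gave 0.17 (adjusted p = 0.181). NDUFV2, its iron-sulphur neighbour in the same module, rose by 0.27 on ERBB2-labelled arrays and was at 0.01 with EGF. NDUFS7, which carries the last cluster before coenzyme Q, fell instead: its signals were 597, 538 and 501 on ERBB2-labelled arrays, 586, 652 and 711 with EGF, and 708, 959 and 844 with vector. Its changes were -0.60 ± 0.11 (SE, adjusted p = 1.77e-04) on ERBB2-labelled arrays, where it stayed below all vector arrays, and -0.35 ± 0.11 (SE, adjusted p = 0.0199) with EGF. NDUFV1, which binds NADH and the flavin, fell by 0.35 on ERBB2-labelled arrays and by 0.27 with EGF. NDUFS3, a core subunit of the coenzyme Q module, was at 0.05 on ERBB2-labelled arrays, not called, and fell by 0.28 with EGF. The EGF calls of NDUFS7 and NDUFV1 each depended on single arrays, with an adjusted p for NDUFS7 of 0.0990 without EGF replicate 1, 0.119 without vector replicate 2 and 0.0617 without vector replicate 3, and for NDUFV1 of 0.0549 without EGF replicate 3 and 0.108 without vector replicate 3.

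Subunits of the membrane arm with NDUFB symbols, 11 in all, showed 5 falls and no rise on ERBB2-labelled arrays (4 and 1 under quantile normalization) and 4 falls and no rise with EGF, 1 of them under equal array medians. These falls were 45.5% of the 11 on ERBB2-labelled arrays and 36.4% with EGF. Among the genes at least as bright as the members' lower quartile, 40.7% and 31.2% fell. NDUFB5 read 2153, 2329.8 and 2374 on ERBB2-labelled arrays, 2607, 2739 and 2572 with EGF, and 3122, 3414 and 3405 with vector. Its 3 groups did not overlap, at -0.53 ± 0.07 (SE, adjusted p = 3.31e-06) on ERBB2-labelled arrays and -0.33 ± 0.07 (SE, adjusted p = 0.00124) with EGF. NDUFB1, NDUFB4 and NDUFB8 were lower on ERBB2-labelled arrays by 0.26, 0.23 and 0.30. The NDUFB4 call was lost under quantile normalization, without a variance trend and for the mean of its probe sets. Those of NDUFB1 (adjusted p = 0.0880) and NDUFB8 (adjusted p = 0.0585) were lost without a variance trend. NDUFB2, NDUFB6 and NDUFB9 were not called in either comparison, at 0.08, 0.13 and 0.01 on ERBB2-labelled arrays. Among the other accessory subunits, NDUFA10 and NDUFA13 were called lower on ERBB2-labelled arrays by 0.24 and 0.23. The NDUFA10 call was lost at an adjusted p of 0.0744 without ERBB2 replicate 2, 0.0748 without ERBB2 replicate 3, 0.0548 without vector replicate 2 and 0.131 without vector replicate 3, and that of NDUFA13 at an adjusted p of 0.0817 without ERBB2 replicate 2, 0.0840 without ERBB2 replicate 3, 0.186 without vector replicate 2 and 0.0977 without vector replicate 3. NDUFA7 was at 0.10 on ERBB2-labelled arrays, not called, and fell by 0.45 with EGF, a call lost at an adjusted p of 0.0553 without EGF replicate 1 and 0.0899 without vector replicate 2. NDUFS4, an accessory subunit that supports the NADH module, was at 0.14 on ERBB2-labelled arrays and -0.07 with EGF, and NDUFAB1, the mitochondrial acyl carrier protein, at 0.08 on ERBB2-labelled arrays and 0.19 with EGF. None of these 4 values was called.

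Complex II, the succinate dehydrogenase that is also an enzyme of the citric acid cycle, had 3 measured subunits. SDHA, the flavin-carrying catalytic subunit, read 801, 763 and 754 on ERBB2-labelled arrays, 642, 624 and 627 with EGF, and 736, 739.7 and 865 with vector. It was at -0.01 on ERBB2-labelled arrays, where the groups overlapped, and at -0.30 ± 0.09 (SE, adjusted p = 0.0133) with EGF, a call that was lost without vector replicate 3 (adjusted p = 0.0980). SDHC, a membrane anchor, had signals of 702, 549 and 778 on ERBB2-labelled arrays, 1215, 1148 and 1071 with EGF, and 924, 1188 and 1066 with vector. The ERBB2-labelled arrays lay below all others, at -0.64 ± 0.11 (SE, adjusted p = 1.12e-04), and EGF was at 0.12, not called. Its 7 probe sets did not move together on ERBB2-labelled arrays: 4 were called lower and 3 were not called. SDHD, the other anchor, was at -0.17 on ERBB2-labelled arrays and 0.01 with EGF, neither called, although without ERBB2 replicate 2 its fall was called (adjusted p = 0.0218).

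Complex III, which hands electrons from coenzyme Q to cytochrome c, was represented in the rule by 6 subunits, and on ERBB2-labelled arrays 6 of these 6 were called lower (median -0.39), and all 6 remained so under quantile normalization and equal array medians. Without a variance trend the calls of UQCR10, UQCRC1 (adjusted p = 0.0505) and UQCRC2 (adjusted p = 0.0625) were lost. Averaging all probe sets of a gene ended those of UQCR10 and UQCR11, while UQCRB and UQCRQ held under all 20 alternatives. With EGF 5 of 6 fell (median -0.24), 1 under equal medians, and 2 without EGF replicate 1, vector replicate 2 or vector replicate 3. Bright genes, as defined for complex I, fell in 40.7% on ERBB2-labelled arrays and in 31.2% with EGF. UQCRB, an accessory subunit at the coenzyme Q binding region, read 3423, 3203 and 3353 on ERBB2-labelled arrays, 4652, 4272 and 4334 with EGF, and 5797, 5371 and 5650.3 with vector. The 3 groups did not overlap, lowest on ERBB2-labelled arrays and highest with vector, at -0.75 ± 0.06 (SE, adjusted p = 1.18e-08) and, with EGF, -0.34 ± 0.06 (SE, adjusted p = 3.96e-04). All 4 UQCRB probe sets were called lower on ERBB2-labelled arrays, at -0.75, -0.82, -0.82 and -0.60. UQCR11, a small accessory subunit whose promoter letters are shown above, read 2518, 2545 and 2732 on ERBB2-labelled arrays, 3726, 3519.7 and 3468 with EGF, and 3899, 4637 and 4269 with vector. It followed the same order without overlap between ERBB2-labelled arrays and the rest, at -0.71 ± 0.07 (SE, adjusted p = 1.29e-07), and at -0.25 with EGF. The EGF call of UQCR11 was lost without vector replicate 2 (adjusted p = 0.0698). A second UQCR11 probe set, with a mean signal of 97.7 on ERBB2-labelled arrays, went the other way at 0.47 (adjusted p = 0.0267), and the mean of both was -0.12 (adjusted p = 0.296). The core subunits also fell on ERBB2-labelled arrays, UQCRC1 by 0.32 and UQCRC2 by 0.28. So did the small subunits UQCRQ, by 0.46, and UQCR10, by 0.32. CYC1, a core subunit of complex III outside the symbol rule, was called higher on ERBB2-labelled arrays, at 0.21 ± 0.07 (SE, adjusted p = 0.0257), a call lost at an adjusted p of 0.0636 without ERBB2 replicate 1, 0.0843 without ERBB2 replicate 2 and 0.122 without vector replicate 1.

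Complex IV, which reduces oxygen, had 9 of 13 tested subunits called lower and none higher on ERBB2-labelled arrays (median -0.41), and 9 lower and none higher with EGF (median -0.30). Under equal array medians 8 and 5 were lower, again with none higher. With the authors' scaling the falls made 69.2% of complex IV in each comparison. Bright genes, as defined for complex I, fell in 40.7% on ERBB2-labelled arrays and in 31.2% with EGF. COX5B, a zinc-containing subunit on the matrix side, fell most in complex IV on ERBB2-labelled arrays. COX5B signals were 3139.8, 2999.7 and 2830.0 on ERBB2-labelled arrays, 4884, 4982 and 5218 with EGF, and 5373, 6281 and 5929 with vector. The ERBB2-labelled arrays read well under all 6 others, at -0.97 ± 0.07 (SE, adjusted p = 1.05e-09), or 0.512 times the vector level. With EGF the change was -0.22 ± 0.07 (SE, adjusted p = 0.0238), and leaving out 1 array ended that call, at an adjusted p of 0.0778 without EGF replicate 1, 0.0735 without EGF replicate 2, 0.112 without vector replicate 2 and 0.0799 without vector replicate 3. COX7A2, a subunit at the surface where supercomplexes form, read 4139, 4523 and 4301 on ERBB2-labelled arrays, 5632, 6365 and 5907 with EGF, and 6662, 7592 and 7414 with vector. Its 3 groups were fully separated, at -0.74 ± 0.07 (SE, adjusted p = 4.12e-08) and -0.27 ± 0.07 (SE, adjusted p = 0.00503) with EGF.

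COX6A1, COX6B1, COX6C and COX8A fell in both comparisons under all 20 alternatives. COX6A1, a regulatory subunit, read 6806, 5903 and 5868 on ERBB2-labelled arrays, 7445, 7211 and 7060.1 with EGF, and 8712, 10774 and 9767 with vector. Its changes were -0.65 on ERBB2-labelled arrays and -0.42 with EGF. COX6B1, which faces the intermembrane space, changed by -0.38 on ERBB2-labelled arrays and -0.44 with EGF, and COX6C, another nuclear-encoded accessory subunit, by -0.58 on ERBB2-labelled arrays and -0.39 with EGF. COX8A, also an accessory subunit, changed by -0.41 on ERBB2-labelled arrays and -0.46 with EGF. COX4I1, the regulatory subunit that binds ATP, read 6454, 6452 and 6497 on ERBB2-labelled arrays, 6016, 6072 and 5815 with EGF, and 7111, 7581 and 7405 with vector. Both the ERBB2-labelled and the EGF arrays lay below vector, by 0.19 on ERBB2-labelled arrays and 0.30 with EGF, and the call on ERBB2-labelled arrays was lost at an adjusted p of 0.0510 without vector replicate 2 and 0.0524 without vector replicate 3, and under quantile normalization (adjusted p = 0.936). COX5A, the partner of COX4I1 in early assembly, was at -0.13 on ERBB2-labelled arrays and -0.06 with EGF, neither called. COX7B, whose brightest probe set fell by 0.53 on ERBB2-labelled arrays, had a dim second probe set that read 126, 138 and 147 on those arrays, 113, 122 and 159 with EGF and 60.6, 61.2 and 65.3 with vector. That second probe set was called higher in both, at 0.96 on ERBB2-labelled arrays and 0.90 with EGF, and the mean of both probe sets was 0.22 on ERBB2-labelled arrays and 0.36 with EGF. The tissue-restricted isoforms COX4I2, COX6A2 and COX6B2 were dim on all arrays, at most 55.7, and were not called in any comparison.

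**Figure D3:**
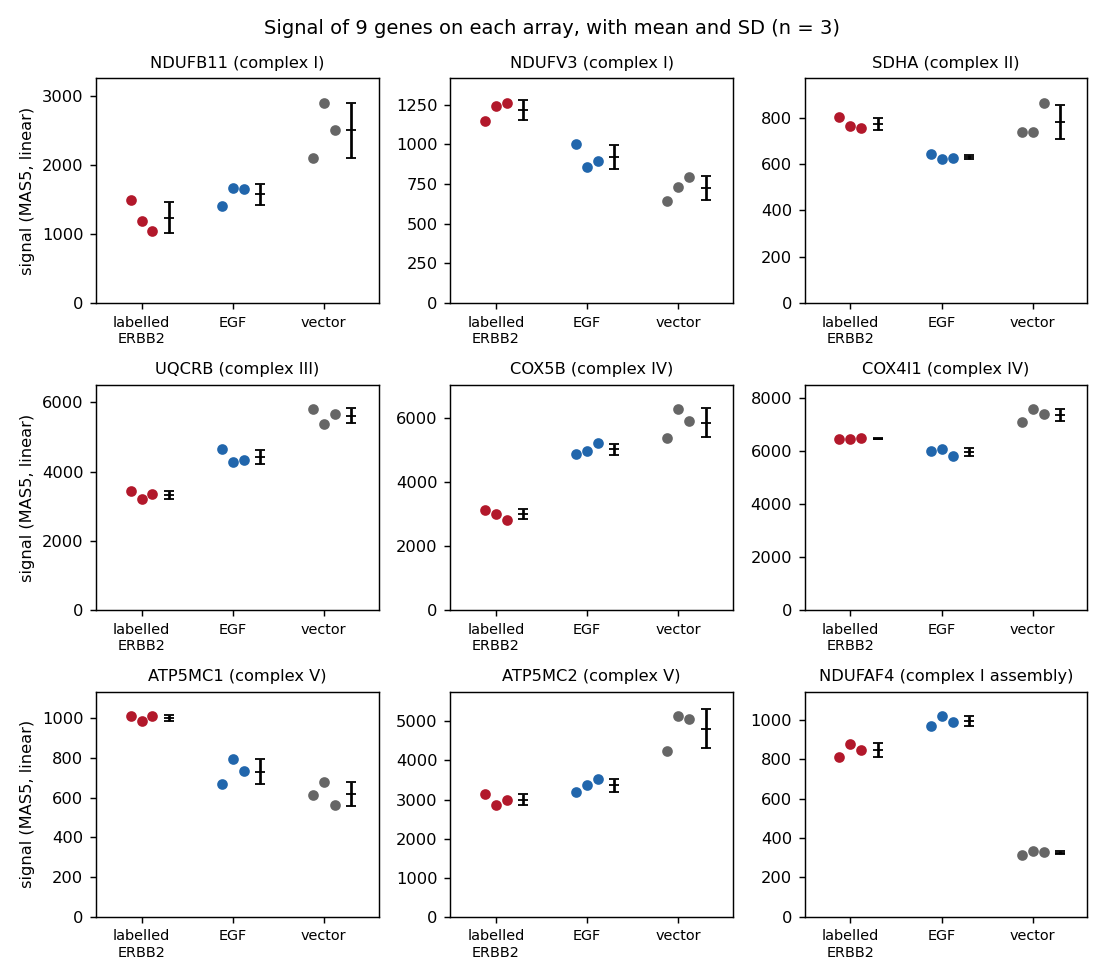
Signal of 9 genes (vertical axis, MAS5 linear scale starting at 0) on each of the 3 ERBB2-labelled arrays, 3 EGF arrays and 3 vector arrays, with the group mean and SD beside the points. NDUFB11, UQCRB, COX5B and ATP5MC2 lie below vector in both the ERBB2-labelled and the EGF arrays, NDUFV3 and NDUFAF4 lie above it in both, ATP5MC1 is separated from vector on ERBB2-labelled arrays, and SDHA is below vector with EGF.

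Complex V had 9 of 16 tested subunits called lower and 1 higher on ERBB2-labelled arrays (median -0.20). With EGF, 8 were lower and none higher (median -0.20). The falls made 56.25% of complex V on ERBB2-labelled arrays and 50.0% with EGF. Among the genes at least as bright as the members' lower quartile, 40.7% and 31.2% fell, and 33.7% and 33.5% rose. Quantile normalization gave 5 lower and 3 higher complex V subunits on ERBB2-labelled arrays, and 5 lower and 1 higher with EGF. Under equal array medians the EGF counts were 1 lower and 2 higher, without vector replicate 3 they were 4 lower, and without EGF replicate 1 or vector replicate 2 there was 1 higher. The genes ATP5MC1, ATP5MC2 and ATP5MC3 encode the same mature c subunit of the rotor ring with different import sequences, and they did not move together. ATP5MC1 read 1009.9, 986 and 1009 on ERBB2-labelled arrays, 668, 792 and 731 with EGF, and 614, 679.5 and 562 with vector. It was higher on every ERBB2-labelled array, at 0.69 ± 0.09 (SE, adjusted p = 4.05e-06), and at 0.23 with EGF, which was not called (adjusted p = 0.0590). ATP5MC2 read 3150.4, 2868 and 2976 on ERBB2-labelled arrays, 3195, 3379.7 and 3529 with EGF, and 4244, 5136 and 5067 with vector. It was lower than every vector array in both the ERBB2-labelled and the EGF arrays, at -0.68 ± 0.08 (SE, adjusted p = 5.69e-07) and -0.51 ± 0.08 (SE, adjusted p = 3.83e-05) with EGF. ATP5MC3 read 5549.5, 5729.8 and 5612 on ERBB2-labelled arrays, 5758, 6367 and 5927 with EGF, and 5529, 5656 and 5643 with vector. Its groups overlapped on ERBB2-labelled arrays (0.01), and it was at 0.10 with EGF, neither called, although a dim further probe set of it was called higher with EGF (0.69).

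In the catalytic head, ATP5F1B, the beta subunit that holds the catalytic sites, read 5507, 5569.9 and 5631 on ERBB2-labelled arrays, 5158, 5523 and 5394 with EGF, and 6287, 7104 and 6908 with vector. It lay below vector in both, by 0.28 on ERBB2-labelled arrays and 0.33 with EGF, but under quantile normalization the first of these was not called (adjusted p = 0.163). ATP5F1A, the alpha subunit beside it, was at -0.14 on ERBB2-labelled arrays and -0.12 with EGF, neither called. ATP5F1E, the small epsilon subunit of the central stalk, read 3237, 3278 and 3081 on ERBB2-labelled arrays, 4419, 4215 and 4032 with EGF, and 4590.4, 5366 and 4853 with vector. The ERBB2-labelled arrays were lowest, at -0.62 ± 0.07 (SE, adjusted p = 4.94e-07), with EGF at -0.22 ± 0.07 (SE, adjusted p = 0.0209). The EGF call of ATP5F1E had an adjusted p of 0.0597 without EGF replicate 2, 0.0926 without EGF replicate 3 and 0.112 without vector replicate 2. In the membrane part, ATP5MJ fell by 0.43 and ATP5ME, the e subunit of the dimer interface, by 0.42 on ERBB2-labelled arrays, and with EGF ATP5ME was at 0.00. ATP5PF, of the peripheral stalk, fell by 0.43 on ERBB2-labelled arrays. Of the other peripheral stalk subunits, ATP5PO fell by 0.24 and ATP5PB by 0.17, and these calls were lost for ATP5PO at an adjusted p of 0.0657 without vector replicate 2 and 0.0656 without vector replicate 3, and for ATP5PB at 0.153 without ERBB2 replicate 3, 0.0904 without vector replicate 1 and 0.0975 without vector replicate 3. The gamma and delta subunits of the central stalk, ATP5F1C and ATP5F1D, were at -0.13 and -0.15 on ERBB2-labelled arrays, neither called. ATP5IF1, the inhibitor that blocks ATP hydrolysis by the enzyme and is no subunit, fell by 0.24 on ERBB2-labelled arrays and by 0.25 with EGF. Those 2 calls of ATP5IF1 were lost without ERBB2 replicate 3 (adjusted p = 0.0596) and without vector replicate 2 (adjusted p = 0.0552). COX7A2L, which helps join complexes III and IV into supercomplexes, was at -0.07 on ERBB2-labelled arrays and 0.02 with EGF, neither called. None of the 5 RNA genes and pseudogenes was called in any comparison.

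The complex I assembly factors that moved were mostly higher. Of the 8 with NDUFAF symbols, 5 rose and none fell on ERBB2-labelled arrays (median 0.72), and 5 rose and 1 fell with EGF (median 0.48). The 5 rises made 62.5% of this small set in each comparison. Among all genes 20.8% were called higher on ERBB2-labelled arrays and 17.2% with EGF, and the difference was not tested. NDUFAF2, NDUFAF4, NDUFAF5, NDUFAF6 and NDUFAF8 were the 5 in each comparison, and they were the 5 under quantile normalization and equal array medians as well. NDUFAF4, which together with NDUFAF3 binds the forming coenzyme Q module, read 809, 879 and 848 on ERBB2-labelled arrays, 968, 1018 and 987 with EGF, and 315, 334 and 327 with vector. Both the ERBB2-labelled and the EGF arrays lay above every vector array, at 1.33 ± 0.08 (SE, adjusted p = 1.14e-10) on ERBB2-labelled arrays and 1.56 ± 0.08 (SE, adjusted p = 3.64e-11) with EGF. Its second probe set rose too, by 0.54 on ERBB2-labelled arrays and 0.64 with EGF. NDUFAF2, which acts late at the docking site of the NADH module, read 1266, 1306 and 1296 on ERBB2-labelled arrays, 1065, 1260.2 and 957 with EGF, and 602, 416 and 643 with vector. Both the ERBB2-labelled and the EGF arrays lay above vector without overlap, at 1.22 ± 0.13 (SE, adjusted p = 1.46e-07) on ERBB2-labelled arrays and 0.98 ± 0.13 (SE, adjusted p = 5.48e-06) with EGF.

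NDUFAF8, which stabilizes NDUFAF5, averaged 788 ± 37.6 on ERBB2-labelled arrays, 637 ± 51.7 with EGF and 434 ± 2.40 with vector (SD, n = 3 each). It rose by 0.83 on ERBB2-labelled arrays and 0.53 with EGF. NDUFAF5, which hydroxylates the core subunit NDUFS7, rose by 0.83 on ERBB2-labelled arrays and by 0.45 with EGF, the EGF call being lost without EGF replicate 2 (adjusted p = 0.0529) or vector replicate 1 (adjusted p = 0.0506). NDUFAF6, another complex I factor, rose by 0.62 on ERBB2-labelled arrays and 0.52 with EGF, the EGF call not holding for the mean of its probe sets (adjusted p = 0.165). NDUFAF3 and NDUFAF7 were not called, at -0.01 and -0.15 on ERBB2-labelled arrays. NDUFAF1, which helps build the membrane arm, was at -0.03 there and fell with EGF, at -0.40 ± 0.14 (SE, adjusted p = 0.0442). That call of NDUFAF1 was lost at an adjusted p of 0.0529 without ERBB2 replicate 3, 0.222 without EGF replicate 2, 0.108 without EGF replicate 3, 0.130 without vector replicate 2 and 0.182 without vector replicate 3.

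**Figure D4:**
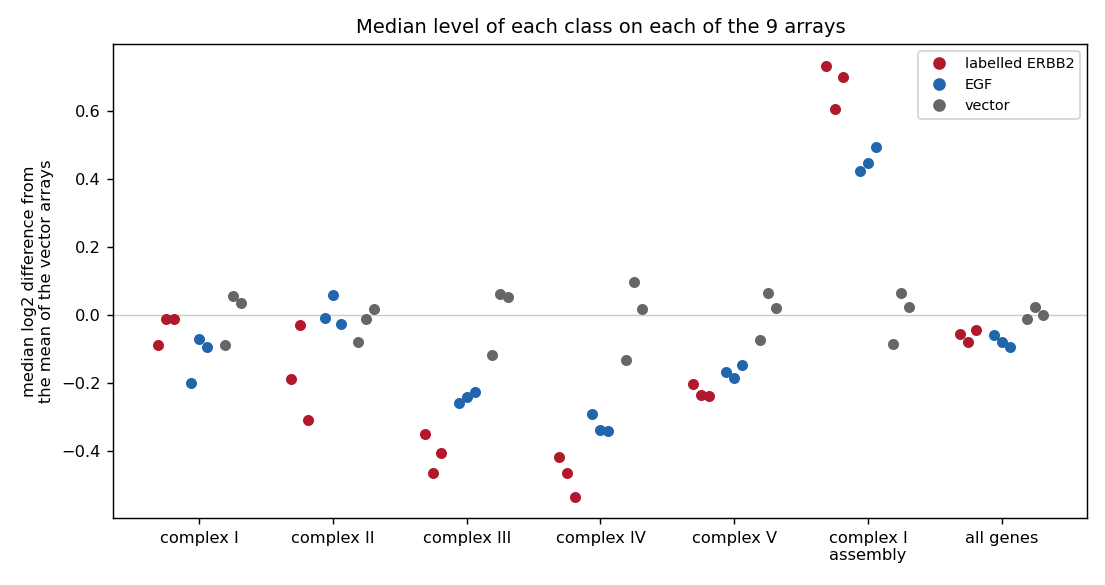
Median over the genes of each class of the log2 difference from the mean of the vector arrays (vertical axis), 1 point per array: red for ERBB2-labelled arrays, blue for EGF, grey for vector. All ERBB2-labelled and EGF arrays lie below all 3 vector arrays for complexes III, IV and V. They also do, with smaller differences, for all genes, at -0.09 to -0.04 against -0.01 to 0.02 with vector. All 6 lie above the vector arrays for the complex I assembly factors, and for complex I the arrays of the 3 groups overlap. Under equal array medians, which are not drawn, the median over genes of the fitted EGF change was -0.08 for complex III, -0.14 for complex IV and -0.04 for complex V.

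Set directly against EGF, ERBB2-labelled arrays had 11 subunits higher and 17 lower of 71 (median -0.07). Over all 86 genes tested, 13 were higher and 17 lower. Over all 13723 genes 12.8% were called higher, 16.1% lower and 28.9% in all. Among the 1412 genes at least as bright as the members' lower quartile, 21.0% were higher, 33.1% lower and 54.1% called in all. The subunits, at 15.5% higher, 23.9% lower and 39.4% in all, were thus called less often than those bright genes. Equal array medians turned the subunit counts to 5 higher and 28 lower, and quantile normalization to 18 higher and 15 lower, so that the balance of directions depended on scaling. Of the 11 subunits that were higher, 9 belong to complex I. Calls that held under all 20 alternatives were 2 rises, of NDUFA9 at 0.40 ± 0.09 (SE, adjusted p = 0.00189) and ATP5MC1 at 0.45 ± 0.09 (SE, adjusted p = 9.34e-04), and 7 falls. Among the falls, COX5B was at -0.75 ± 0.07 (SE, adjusted p = 1.36e-07), SDHC at -0.76 ± 0.11 (SE, adjusted p = 4.20e-05), NDUFA3 at -0.54, NDUFA5, an accessory subunit of the coenzyme Q module, at -0.47, COX7A2 at -0.46, ATP5ME at -0.42 and UQCRB at -0.41. Of the SDHC probe sets, 4 were called lower against EGF and 2 higher, at 0.32 and 0.52, and the mean of all 7 was -0.32 (adjusted p = 0.0164). The complex I core subunits NDUFS1 (0.40), NDUFS3 (0.33) and NDUFV2 (0.26) were higher than with EGF, and SDHA was at 0.28, a call with an adjusted p of 0.0641 without ERBB2 replicate 1, 0.0589 without EGF replicate 2 and 0.0608 without EGF replicate 3. Complex I falls against EGF numbered 6, and 2 without EGF replicate 2 and 3 without EGF replicate 3, ERBB2 replicate 2 or ERBB2 replicate 3. These differences compare a transgene with a short stimulus, so agent and duration cannot be told apart.

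Probe sets beyond the brightest were examined for the 40 genes that had any past the filter, 66 probe sets in all. On ERBB2-labelled arrays, 49 of 66 changed in the direction of the brightest one, 46 did with EGF, and 38 in the direct comparison. Of those belonging to a called gene, 18 of 44 were themselves called the same way on ERBB2-labelled arrays and 2 the opposite way (COX7B and UQCR11). With EGF 10 of 29 were called the same way and 1 the opposite way (COX7B). In ERBB2 against EGF 9 of 26 were called the same way and 3 the opposite way, 1 of NDUFV3 and 2 of SDHC.

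Mitochondrially encoded subunits, transcribed in the organelle, had 7 probe sets that name 1 gene. On ERBB2-labelled arrays 6 fell and 1 rose, and with EGF 5 fell and none rose. Falls were called for 25.1% of all genes and 40.7% of bright genes on ERBB2-labelled arrays, and for 19.0% and 31.2% with EGF. Quantile normalization left 2 falls and 1 rise on ERBB2-labelled arrays and none with EGF, where equal array medians also left none. COX1, the catalytic subunit of complex IV, read 12196, 13460.1 and 11508 on ERBB2-labelled arrays, 19516, 17678 and 17341 with EGF, and 21993, 23041 and 21961 with vector. It fell on ERBB2-labelled arrays without overlap, at -0.85 ± 0.07 (SE, adjusted p = 2.41e-09), and still did under quantile normalization (adjusted p = 1.07e-07). COX3, another mitochondrially encoded subunit of complex IV, fell there by 0.95. ND6, the subunit encoded on the other strand of the mitochondrial genome from the rest of complex I, rose on ERBB2-labelled arrays: its signals were 367, 445 and 396 on ERBB2-labelled arrays, 198, 217 and 249 with EGF, and 265, 218 and 150.4 with vector, at 0.91 ± 0.15 (SE, adjusted p = 6.59e-05), and at 0.09 with EGF, not called.

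Cytochrome c and the enzyme that completes it were higher in both the ERBB2-labelled and the EGF arrays. CYCS, cytochrome c itself, read 5315, 6542 and 5821 on ERBB2-labelled arrays, 7282, 7148 and 6983 with EGF, and 3894, 3791 and 3727 with vector. Both the ERBB2-labelled and the EGF arrays lay above vector without overlap, at 0.62 ± 0.07 (SE, adjusted p = 5.38e-07) on ERBB2-labelled arrays and 0.91 ± 0.07 (SE, adjusted p = 7.90e-09) with EGF. HCCS, which attaches haem to cytochrome c, rose by 0.82 on ERBB2-labelled arrays and 0.45 with EGF. CYC1, the cytochrome c1 subunit of complex III, was higher on ERBB2-labelled arrays, at 0.21, and fell with EGF, at -0.21. The EGF call was lost at an adjusted p of 0.173 without EGF replicate 1, 0.0757 without vector replicate 2 and 0.167 without vector replicate 3.

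Nuclear regulators of respiratory genes that were called were mostly higher: of 15 tested, 8 rose and 2 fell on ERBB2-labelled arrays, and 11 rose and 1 fell with EGF. The shares over all genes were 20.8% higher and 25.1% lower on ERBB2-labelled arrays, and 17.2% higher and 19.0% lower with EGF. Whether this small list differs from those shares was not tested. PPRC1, a coactivator of the PGC-1 family that acts with NRF1, read 233, 212 and 222 on ERBB2-labelled arrays, 246, 171 and 195 with EGF, and 71.3, 76.2 and 50.4 with vector. Both the ERBB2-labelled and the EGF arrays lay above vector without overlap, at 1.55 ± 0.15 (SE, adjusted p = 7.89e-08) on ERBB2-labelled arrays and 1.43 ± 0.15 (SE, adjusted p = 5.55e-07) with EGF. GABPB1, a subunit of the ETS-family factor GABP, rose by 1.33 on ERBB2-labelled arrays and 0.89 with EGF, and its DNA-binding partner GABPA was at -0.17 on ERBB2-labelled arrays and 0.12 with EGF, neither called. NRF1, whose motif was searched above, rose by 0.75 on ERBB2-labelled arrays and 0.71 with EGF, the EGF call not holding for the mean of its probe sets (adjusted p = 0.267). Genes of mitochondrial DNA maintenance and transcription were among the rises, with the packaging factor TFAM at 0.83 on ERBB2-labelled arrays and 0.93 with EGF. TFB2M, a mitochondrial transcription factor, rose by 0.93 on ERBB2-labelled arrays and 0.83 with EGF, and the helicase TWNK by 0.80 on ERBB2-labelled arrays and 0.83 with EGF. ESRRA, an orphan nuclear receptor that acts with PGC-1 coactivators, fell, by 0.68 on ERBB2-labelled arrays and 0.60 with EGF.

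Among 48 assembly factors of complexes I to V outside the NDUFAF symbols, 19 rose and 9 fell on ERBB2-labelled arrays, and 13 rose and 5 fell with EGF. Over all genes 20.8% rose and 25.1% fell on ERBB2-labelled arrays, and 17.2% rose and 19.0% fell with EGF. The falls on ERBB2-labelled arrays numbered 4 without vector replicate 2 and 5 without ERBB2 replicate 3. COA7, an assembly factor of complex IV, read 521, 513 and 475 on ERBB2-labelled arrays, 419.7, 399.9 and 398 with EGF, and 106, 159 and 172 with vector. Every ERBB2-labelled and EGF array lay above vector, at 1.71 ± 0.13 (SE, adjusted p = 2.59e-09) on ERBB2-labelled arrays and 1.41 ± 0.13 (SE, adjusted p = 8.87e-08) with EGF. Other factors of complex IV assembly rose as well. CMC2 rose by 1.14 on ERBB2-labelled arrays and 0.77 with EGF, PET117 by 0.84 on ERBB2-labelled arrays and 0.81 with EGF, and the copper chaperone SCO1 by 0.78 on ERBB2-labelled arrays and 0.61 with EGF. TMEM70, needed to assemble complex V, rose by 0.60 on ERBB2-labelled arrays and 0.80 with EGF. SURF1, a complex IV factor, fell by 0.47 on ERBB2-labelled arrays and 0.44 with EGF, and COA5 fell on ERBB2-labelled arrays by 0.89.

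Enzymes that feed the chain were divided, as were all genes. Over all genes 20.8% rose and 25.1% fell on ERBB2-labelled arrays, and 17.2% rose and 19.0% fell with EGF. Whether the small lists below differ from those shares was not tested. Of 15 citric acid cycle and pyruvate dehydrogenase genes, 5 rose and 4 fell on ERBB2-labelled arrays, and 4 rose and 4 fell with EGF, where leaving out vector replicate 3 left 2 falls. DLAT, the acetyltransferase of pyruvate dehydrogenase, rose by 1.02 on ERBB2-labelled arrays and 0.58 with EGF. SUCLG2, a subunit of succinyl-CoA synthetase, fell by 0.41 on ERBB2-labelled arrays and 0.32 with EGF, the EGF call being lost under equal array medians (adjusted p = 0.203). Of 13 coenzyme Q synthesis genes, 5 rose and 2 fell on ERBB2-labelled arrays, where leaving out vector replicate 1 gave 4 falls, and 3 rose and 3 fell with EGF. PDSS1, which makes the side chain of coenzyme Q, rose by 1.28 on ERBB2-labelled arrays and 1.50 with EGF, whereas COQ2, which attaches that chain, rose by 1.11 on ERBB2-labelled arrays and was at -0.09 with EGF. Of 6 carrier and channel genes, 2 rose and 2 fell on ERBB2-labelled arrays, and 1 rose and 3 fell with EGF. The 2 rises there were SLC25A4, which did not hold as the mean of its probe sets (-0.06), and VDAC3, an outer membrane channel at 0.16 that was not called when any 1 array other than ERBB2 replicate 1 was left out (adjusted p of 0.0506 to 0.142). SLC25A3, the phosphate carrier that supplies ATP synthase, fell by 0.37 on ERBB2-labelled arrays and 0.24 with EGF.

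**Figure D5:**
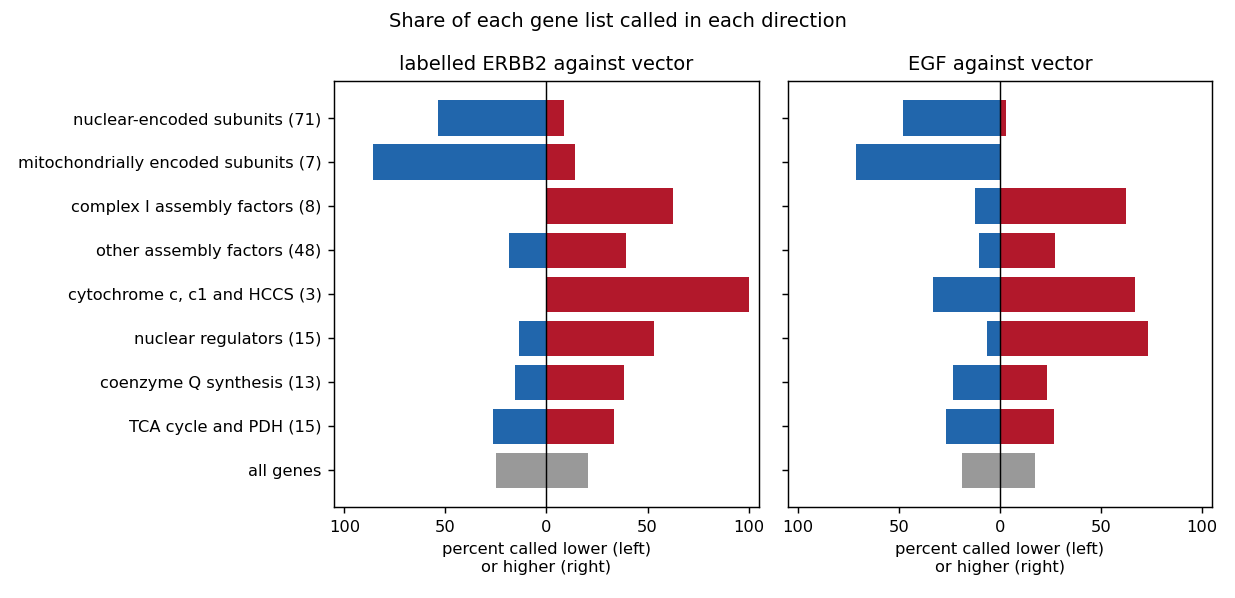
Percent of tested genes in each list (number tested in brackets) called lower (left of 0, blue) and higher (right of 0, red) at an adjusted p under 0.05, for ERBB2-labelled arrays against vector (left panel) and EGF against vector (right panel), with all genes in grey. Nuclear-encoded subunits lean left in both panels, with 34 lower and 2 higher with EGF (9 and 7 under equal array medians), while complex I assembly factors and nuclear regulators lean right.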

How the data were processed

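Total RNA of 9 MCF10A cultures was hybridised to 1-colour Affymetrix arrays. For each probe set the authors deposited a signal intensity on a linear scale, which came from MAS5, going by the submitters' processing notes. The version of MAS5 is not given in the sources used here. A trimmed mean of 100.03 on all 9 arrays, leaving out 2% of probe sets at each end, showed that the authors had scaled each array. Such scaling partly absorbs a shift of many genes in 1 direction. Detection calls were not used here.

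Genes were named by the platform annotation, and 15 probe sets naming several genes of which some fit the rule were not used as members. Values were analysed as log2(signal + 16), so changes of dim genes are understated. After 62 control probe sets were left out, those above the 40th percentile of mean log2 value were kept (32768). All 9 arrays entered 1 group-means model in limma 3.58.1 (R 4.3.3), fitted by lmFit and by eBayes with its trend option, from which the 3 comparisons were taken, with Benjamini-Hochberg adjustment over all probe sets kept and calls at an adjusted p under 0.05. SE values are moderated. The number of arrays limits the precision: an exact permutation test of 1 gene with 3 against 3 arrays cannot go below 0.1. The fit was also run on simulated independent normal noise in which a small part of the probe sets was changed. That setting differs from the widespread changes seen here, so the run does not bear on the calls above.

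The labels number replicates 1 to 3 in each group, but deviations of same-numbered arrays correlated between -0.03 and 0.02, so the numbers were not used as pairs. The members, classes and gene lists, and the rule for naming genes, were chosen with earlier results of these data known. That rule took up to 3 called rises and 3 called falls per complex by size, core, isoform and regulatory genes, and up to 4 genes per related list. The text also names genes outside that rule, and it leaves out some that the rule took. Alternatives were pseudocounts of 1 and 64, no filter or one at the 60th percentile, equal array medians, quantile normalization, no variance trend, array weights, only the compared groups, the replicate number as a block, the mean of a gene's probe sets, and leaving out each array. Figures were drawn with matplotlib 3.10.9 in Python 3.11.15.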

Additional observations from a re-analysis of the deposited data

How the results depend on the processing

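Of the calls over all 86 genes tested, 9 of 11 rises and 21 of 39 falls in ERBB2 against vector, 3 of 7 and 9 of 36 in EGF against vector, and 2 of 13 and 7 of 17 in ERBB2 against EGF held under all 20 alternatives. Without a variance trend, falls in ERBB2 against vector numbered 24, calls in EGF against vector 15 with 10 falls, and calls in ERBB2 against EGF 14 with 4 rises and 10 falls. Under equal array medians EGF against vector had 21 calls with 12 rises and 9 falls, and ERBB2 against EGF had 5 rises and 29 falls. Quantile normalization gave 20 rises in ERBB2 against EGF, and the mean of a gene's probe sets gave 11 rises in EGF against vector. Leaving out 1 array at a time gave 45 to 53 calls in ERBB2 against vector (11 to 11 rises, 34 to 42 falls), 29 to 45 in EGF against vector (6 to 9 and 22 to 39, with the fewest falls, 22, without vector replicate 3) and 22 to 33 in ERBB2 against EGF (10 to 13 and 12 to 20). With the replicate number as a block the calls numbered 50, 40 and 30 in the order of the first sentence, against 50, 43 and 30 without it. Equal array medians also turned the median of complex I, to 0.02 in ERBB2 against vector and 0.03 in EGF against vector. Among the genes taken by the naming rule, changes called with or without the alternative turned direction only when all probe sets of a gene were averaged. In ERBB2 against vector these were COX7B to 0.22, SLC25A4 to -0.058 and ERBB2 to 0.093. In EGF against vector they were COX7B to 0.36 and UQCR11 to 0.047. In ERBB2 against EGF they were NDUFV3 to -0.22, ATP5IF1 to -0.31, CYCS to 0.27 and POLG to 0.07. The causes of these shifts were not tested. Signals near background limit COX4I2, COX6A2 and COX6B2 and the genes that did not pass the filter.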
